A study of Homo sapiens with 13 samples.

Results

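The SMAD signal transducers are 6 genes, SMAD1, SMAD2, SMAD3, SMAD4, SMAD5 and SMAD9. They were taken by gene symbol from the 61546 features of both count tables, and each symbol matched a single row. They were followed in 13 bulk RNA-seq libraries from RUES2, a line of human embryonic stem cells, with the genotype GFP::SMAD4, in which SMAD4 is fused to green fluorescent protein. In the time series, 2 libraries were labelled 0 h and 1 library each was made at 4, 12, 20, 28 and 42 h of 100 ng/mL BMP4 with 5 µM IWP2, an inhibitor of Wnt ligand secretion, and ROCK inhibitor. The labels of the 0 h libraries carry the same treatment, and both were read as cells at its start. In the dose response, 1 library each was made after 5 h of BMP4 and IWP2 with 0, 10, 30, 100 or 300 nM LDN-193189, an inhibitor of the BMP type I receptor kinases, and 1 library from cells in mTeSR medium without these agents, here called untreated. Time-series RNA was depleted of ribosomal RNA and dose-response RNA was selected for polyA, after extraction with different kits, so that levels were compared within each series only. All 13 libraries share the fusion genotype, and only 0 h had more than 1 library.

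SMAD proteins carry signals of the TGF-β superfamily from the receptors to the nucleus. SMAD1, SMAD5 and SMAD9 (also called SMAD8) are the receptor-activated SMADs (R-SMADs) phosphorylated by BMP receptors, SMAD2 and SMAD3 are those phosphorylated by activin, Nodal and TGF-β receptors, and SMAD4 is the common partner (co-SMAD) that joins both groups in complexes on DNA. SMAD6 and SMAD7 are inhibitory SMADs that BMP signaling is known to induce and that limit it in turn. In pluripotent stem cells activin and Nodal signaling through SMAD2 and SMAD3 is known to maintain the undifferentiated state, whereas BMP signaling drives differentiation toward extraembryonic fates. The transcript levels given here are not protein levels and do not show phosphorylation or nuclear entry.

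The counts on genes ranged from 38 to 71.3 M in the time series and from 15.6 to 34 M in the dose response. The untreated library was the shallowest, and 7.89% of its counts were on mitochondrial genes against 4.22 to 4.49% in the other dose-response libraries. The first 0 h library had 7.6% mitochondrial counts and the second 4.29%, against 2.01 to 4.23% later. ID1, a direct BMP target, was at 55.5 and 62.2 CPM (counts scaled to a common library size) at 0 h and at 869 to 1610 CPM later, and it was at 68.5 CPM in untreated cells and 1039 CPM with BMP4 and IWP2. All 7 pluripotency markers were above 1 CPM in each library, while the summed level of 6 amnion markers went from 12.3 and 16.5 CPM at 0 h to 5090 CPM at 42 h and that of the pluripotency markers from 7810 and 8140 to 4280 CPM. In bulk RNA, a change in the number of cells of a type and a change in RNA per cell cannot be told apart. The markers of primitive streak (3 genes, at most 4.32 CPM in sum), endoderm (2 genes, at most 4.15 CPM), neural cells (2 genes, at most 1.45 CPM) and blood or endothelium (3 genes, at most 0.36 CPM) were low throughout. The 3 fibroblast markers summed to 94 to 193 CPM, with 1 of the 3 at or above 1 CPM in all but the 42 h library, where 2 were.

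In GRCh38 with GENCODE 44 annotation, SMAD1 (ENSG00000170365) lies at chr4:145481194-145559176 on the plus strand, SMAD5 (ENSG00000113658) at chr5:136132845-136188747 on the plus strand and SMAD9 (ENSG00000120693) at chr13:36844831-36920887 on the minus strand. SMAD2 (ENSG00000175387) lies at chr18:47808957-47931146 on the minus strand, SMAD4 (ENSG00000141646) at chr18:51028528-51085045 on the plus strand and SMAD3 (ENSG00000166949) at chr15:67063763-67195173 on the plus strand. Genes annotated inside or across these loci had few counts. Exons of SMAD5-AS1 overlap those of SMAD5 on the other strand, and SMAD5-AS1 had at most 25 counts in a time-series library and at most 3 in a dose-response library. SMAD1-AS2 had at most 26 counts and SMAD9-IT1 at most 1, both in the time series, and SMAD1-AS1 had 0 counts in all 13 libraries. The strand setting of the counting is not given in the sources used here, so reads of overlapping antisense genes could not be separated by strand.

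The promoter windows of the 4 genes below are shown because the results turn on them. SMAD9 and SMAD6 differed most between libraries with and without BMP4, SMAD5 is the BMP R-SMAD with the smallest range, and SMAD3 is the R-SMAD that was lower in every library with BMP4. Each window runs 5′ to 3′ on the strand of the gene, from 250 bases before to 50 bases after a RefSeq transcript start (GRCh38.p14). Capitals mark GGCGCC, which reads the same on both strands, and CAGAC or its reverse complement GTCTG, which are letters that SMAD complexes are known to bind. The 2 motifs share no letters in these windows.
SMAD9, chr13:36920189-36920488, minus strand: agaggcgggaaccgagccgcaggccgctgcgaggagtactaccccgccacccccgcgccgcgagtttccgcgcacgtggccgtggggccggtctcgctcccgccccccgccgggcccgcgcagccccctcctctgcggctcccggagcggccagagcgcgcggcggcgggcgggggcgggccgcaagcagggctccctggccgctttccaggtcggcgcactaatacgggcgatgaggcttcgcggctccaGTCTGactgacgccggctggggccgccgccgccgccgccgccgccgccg
SMAD5, chr5:136132595-136132894, plus strand: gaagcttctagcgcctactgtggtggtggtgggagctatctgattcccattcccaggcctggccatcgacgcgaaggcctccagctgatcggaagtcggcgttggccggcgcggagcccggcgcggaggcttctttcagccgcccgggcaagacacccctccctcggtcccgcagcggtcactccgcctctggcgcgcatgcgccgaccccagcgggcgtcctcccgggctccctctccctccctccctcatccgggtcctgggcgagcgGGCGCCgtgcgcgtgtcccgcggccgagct
SMAD3, chr15:67065352-67065651, plus strand: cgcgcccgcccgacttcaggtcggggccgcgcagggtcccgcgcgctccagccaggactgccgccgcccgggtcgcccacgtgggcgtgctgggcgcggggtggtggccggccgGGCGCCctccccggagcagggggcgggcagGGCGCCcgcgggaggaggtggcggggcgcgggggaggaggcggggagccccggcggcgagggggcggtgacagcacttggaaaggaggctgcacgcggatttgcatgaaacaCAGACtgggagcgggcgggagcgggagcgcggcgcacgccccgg
SMAD6, chr15:66701986-66702285, plus strand: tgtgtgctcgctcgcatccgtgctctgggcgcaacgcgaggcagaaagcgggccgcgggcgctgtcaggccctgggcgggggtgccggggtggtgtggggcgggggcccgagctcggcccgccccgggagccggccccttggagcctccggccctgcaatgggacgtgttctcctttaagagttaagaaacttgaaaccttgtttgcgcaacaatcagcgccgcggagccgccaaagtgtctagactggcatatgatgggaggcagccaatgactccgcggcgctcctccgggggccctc
The SMAD9 window held 0 copies of GGCGCC and 1 of CAGAC, read as GTCTG. The SMAD5 window held 1 GGCGCC and 0 CAGAC, the SMAD3 window 2 GGCGCC and 1 CAGAC, and the SMAD6 window neither. Over the 35116 promoter windows of 300 bases in the same table, 19.2% held GGCGCC and 45.3% held CAGAC in either orientation, so that both motifs are common. SMAD3 has 5 RefSeq starts here and SMAD1 also 5, and the counts do not tell which starts were used. The other SMAD3 windows, not shown, each held 0 GGCGCC, and they held 0, 0, 1 and 4 CAGAC in either orientation.

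Per transcript length, the SMADs of the 0 h cells covered a wide range of FPKM (fragments scaled to transcript length and library depth). SMAD2 was highest at 64.6 ± 6.7 FPKM (SD, n = 2), followed by SMAD4 at 51.8 ± 5.0 FPKM. SMAD1 at 20.1 ± 3.2 FPKM and SMAD5 at 20.0 ± 0.82 FPKM could not be ordered, as SMAD1 was the higher of both in the first library and SMAD5 in the second. SMAD3 followed at 6.21 ± 0.40 FPKM, and SMAD9 was lowest at 0.52 ± 0.18 FPKM. SMAD2 was above SMAD4 and SMAD4 above SMAD1 in all 13 libraries, and SMAD1 above SMAD5 in all but the second 0 h library. The lower end of this order turned over with treatment. SMAD9 stood at 0.0986 and 0.0658 times the FPKM of SMAD3 at 0 h, at 1.74 times at 4 h and at 7.42 times at 20 h. With BMP4 for 5 h it stood at 2.47 times SMAD3 without LDN, 1.19 times at 10 nM, 0.84 times at 30 nM and 0.304 times at 300 nM, and at 0.111 times in untreated cells. Without replicates after 0 h, the exchange of rank rests on single libraries.

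**Figure D1:**
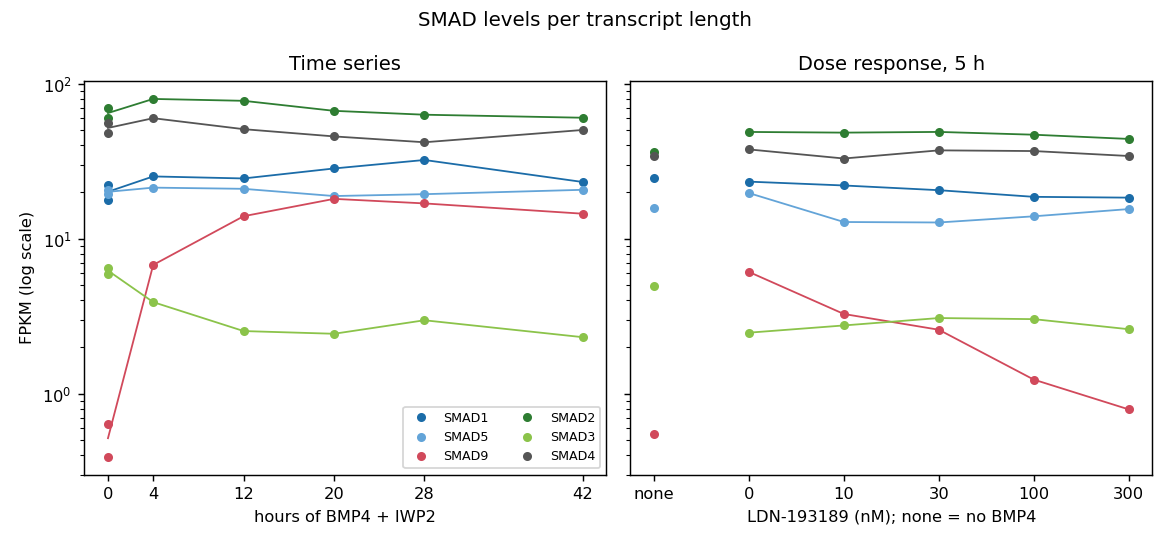
Deposited FPKM of the 6 SMADs (log scale) against hours in the time series (left; points are libraries, lines join the means) and by LDN dose at 5 h (right; none is the untreated library). SMAD9 went from 0.64 and 0.39 FPKM at 0 h past SMAD3 to 18 FPKM at 20 h, and under LDN it fell back below SMAD3 from 30 nM on.

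The make-up of the R-SMAD transcripts changed over the time series. SMAD1, SMAD5 and SMAD9 made up 36.5 and 36.4% of the summed R-SMAD FPKM at 0 h and 38.9, 42.6, 48.5, 50.9 and 48.2% in the later libraries, in order of time. At 5 h in the dose response, with 1 library each, the FPKM share was 49.9% in untreated cells and 48.9% with BMP4 and IWP2. It was 40.4 to 42.7% with LDN. Part of that step was SMAD5, at 19.7 FPKM in the 0 nM library, 12.7 to 15.5 FPKM with LDN and 15.7 FPKM in untreated cells. SMAD9 was at 6.09 FPKM in the 0 nM library and at 0.79 to 3.26 FPKM with LDN, and SMAD1 at 23.3 and 18.4 to 22.0 FPKM. By counts the share was 56.9% in untreated cells, 59.7% with BMP4 and IWP2 and 52.5 to 56.0% with LDN. Its direction with BMP4 thus depended on the measure. Within these BMP R-SMADs, the FPKM share of SMAD9 was 1.47 and 1.04% at 0 h, 12.7% at 4 h and 27.7% at 20 h. Within the SMAD2 and SMAD3 pair, the share of SMAD3 was 8.56 and 9.01% at 0 h and 3.16 to 4.66% later. The co-SMAD SMAD4 stood at 0.463 and 0.466 times the summed R-SMAD FPKM at 0 h and at 0.311 to 0.437 times later. All 5 later libraries thus lay below both 0 h libraries in that ratio. In the dose response SMAD4 stood at 0.369 to 0.439 times the R-SMAD sum with LDN. Untreated cells, at 0.415 times, and the library with BMP4 and IWP2 but no LDN, at 0.375 times, lay inside that range.

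SMAD9 had the largest change of the 6 over time. On TMM-scaled library totals it was at 2.57 and 1.58 CPM in the 0 h libraries and at 23.7, 46.7, 54.1, 58.8 and 52.1 CPM at 4, 12, 20, 28 and 42 h. Every later library was above both 0 h libraries, 11.4-fold above their mean of 2.08 ± 0.70 CPM (SD, n = 2) at 4 h and 28.3-fold at 28 h, and the level changed less between 12 and 42 h than before. The 0 h values rest on 99 and 116 counts, with 95% Poisson intervals of 2.09 to 3.13 and 1.31 to 1.90 CPM that cover counting error only. The straight line in hours gave a fitted log2 change of 3.52 from 0 to 42 h (SE 1.59, adjusted p = 0.116, edgeR quasi-likelihood test), which did not pass 0.05. The alternatives that allow for a curved course passed, with adjusted p = 0.0172 on log2(hours + 4), 0.0492 on the order of the time points and 0.0101 with a quadratic term in the edgeR fits, as did the DESeq2 test of the straight line at 0.0410. With a library left out the fitted change ranged from 2.42 (without the second 0 h library) to 5.94 (without 42 h), and none of these fits was called. Without 42 h, the slope fitted from 0 to 28 h was extended to 42 h, here and for the other members. SMAD6, an inhibitory SMAD, was at 6.48 and 7.58 CPM at 0 h and at 284, 589, 944, 690.5 and 817 CPM in the later libraries, in order of time, and missed the threshold of the straight line as well (log2 change 4.33, SE 2.33, edgeR adjusted p = 0.177).

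SMAD1 rose more slowly. It was at 36.5 and 27.8 CPM in the 0 h libraries and at 38.4, 40.7, 47.6, 58.8 and 48.8 CPM in the later ones, in order of time. The 4 h library was only just above the higher 0 h library, and the largest value, at 28 h, was 1.83-fold the 0 h mean of 32.2 ± 6.2 CPM (SD, n = 2). Of the 6 members, SMAD1 alone passed the test of the slope, with a fitted log2 change of 0.75 (SE 0.24, edgeR adjusted p = 0.0368). Over all 15976 genes tested 19.2% rose and 17.5% fell, so that 1 rise and 0 falls among 6 members is no more than the background. The call was lost without any single library other than that at 42 h (adjusted p from 0.0531 to 0.0819), and the fitted change was 1.22 without that library. It was lost on library totals as well (log2 change 0.52, adjusted p = 0.152).

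SMAD5 did not move by more than its 0 h replicates differed. It was at 90.2 and 61.6 CPM at 0 h and at 69.8, 65.5, 60.7, 69.0 and 70.5 CPM at 4, 12, 20, 28 and 42 h. Only the 20 h value lay outside the 0 h pair, just below it. The fitted log2 change was -0.11 (SE 0.21, edgeR adjusted p = 0.692) and 0.11 without the first 0 h library. Its FPKM were 20.6 and 19.5 at 0 h and 18.8 to 21.3 later.

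**Figure D2:**
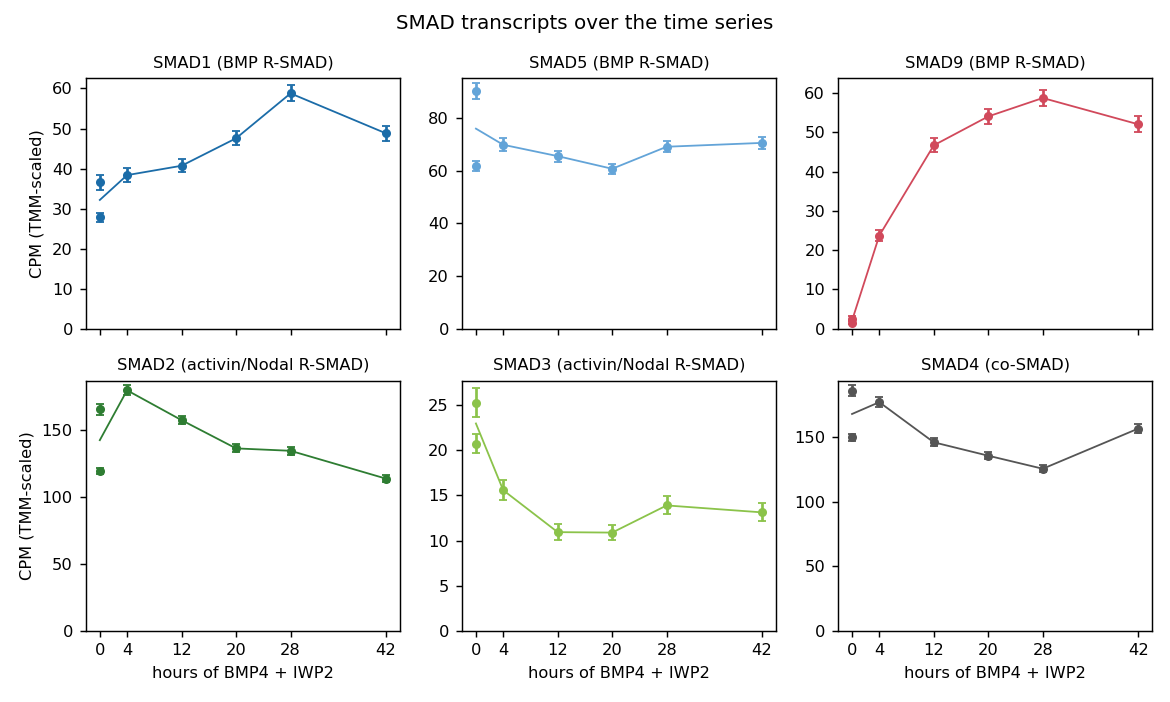
CPM on TMM-scaled totals of each SMAD (y axis, from 0) against hours of BMP4 with IWP2 (x axis). Points are libraries with 95% Poisson intervals, and lines join the means. SMAD9 went from 2.57 and 1.58 CPM to 58.8 CPM at 28 h, SMAD3 lay below both 0 h libraries at all 5 later times, and SMAD5 kept within or just below its 0 h pair.

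SMAD3 was lower at every time after 0 h. It was at 25.3 and 20.7 CPM at 0 h, 15.6 CPM at 4 h, 10.9 CPM at both 12 and 20 h, 13.9 CPM at 28 h and 13.1 CPM at 42 h. None of the 5 later libraries reached the 0 h pair, and the lowest, at 20 h, was 0.474 times the 0 h mean of 23.0 ± 3.2 CPM (SD, n = 2). The straight line did not pass (log2 change -0.76, SE 0.35, edgeR adjusted p = 0.122), while the fits on log2(hours + 4) at adjusted p = 0.0376, on 0 to 20 h only at 0.0304 and with a quadratic term at 0.0190 did, as did limma on log2(FPKM + 0.1) at 0.0325. The straight line gave -0.49 without the first 0 h library and -1.25 without the 42 h library, and neither was called.

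SMAD2, the most abundant R-SMAD, was at 166 and 119 CPM in the 0 h libraries and at 180, 157, 136, 135 and 114 CPM in the later ones, in order of time. In CPM only the 4 h value was above and only the 42 h value below the 0 h pair, whereas in FPKM the 42 h value of 60.2 lay inside the pair of 69.3 and 59.9. The slope was not called (log2 change -0.41, SE 0.23, edgeR adjusted p = 0.188). Without the second 0 h library it was called, at -0.62 and adjusted p = 0.0118. SMAD4 was at 186 and 150 CPM at 0 h and at 177, 146, 136, 126 and 157 CPM at 4, 12, 20, 28 and 42 h. The values at 12, 20 and 28 h were below both 0 h libraries, the 4 and 42 h values were not, and the slope was not called (log2 change -0.26, SE 0.20, edgeR adjusted p = 0.337). It was -0.16 without the first 0 h library and -0.69 without the 42 h library, and not called in either.

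SMAD9 fell step by step with the dose of the BMP receptor inhibitor. SMAD9 was at 2.34 CPM in untreated cells (35 counts, 95% Poisson interval 1.63 to 3.26) and at 23.3 CPM with BMP4 and IWP2, a 9.96-fold difference between 2 libraries without replicates. It was at 13.3 CPM with 10 nM LDN, 9.08 CPM with 30 nM, 3.67 CPM with 100 nM and 2.46 CPM with 300 nM. Each dose lay below the one before, and the interval at 300 nM, 1.96 to 3.05 CPM, overlapped that of untreated cells. Over the steps from 0 to 300 nM the fitted log2 change was -3.28 (SE 0.17, edgeR adjusted p = 8.06e-08). By its p-value this was rank 33 of 14907 genes, and the adjusted p stayed under 0.05 in all 14 alternatives (0.00151 at most).

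SMAD1 and SMAD2 fell with LDN by much less. SMAD1 was at 41.0 CPM without LDN and at 36.3, 36.8, 31.1 and 30.6 CPM with 10, 30, 100 and 300 nM, against 39.0 CPM in untreated cells. Its fitted log2 change was -0.42 (SE 0.076, edgeR adjusted p = 0.00170), and with 300 nM it was below untreated cells rather than at their level. With the untreated library as a further step the SMAD1 slope was no longer called (-0.16, adjusted p = 0.427). SMAD2 was at 76.6, 74.1, 71.3, 69.8 and 65.1 CPM from 0 to 300 nM and at 66.3 CPM in untreated cells, with a fitted log2 change of -0.22 (SE 0.048, edgeR adjusted p = 0.00589). Without the 300 nM library the SMAD2 slope was -0.18 and not called (adjusted p = 0.114), and limma on log2(FPKM + 0.1) gave -0.14 (adjusted p = 0.226).

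SMAD3 rose with LDN. It was at 18.4 CPM in untreated cells and at 8.60 CPM with BMP4 and IWP2, and it was at 9.83, 11.6, 13.2 and 12.5 CPM with 10, 30, 100 and 300 nM LDN. All 5 libraries with BMP4 were below the untreated one, and the fitted log2 change over the doses was 0.59 (SE 0.13, edgeR adjusted p = 0.00552). At 300 nM, 60.1% of the difference between the untreated and the 0 nM library was left in CPM and 94.8% in FPKM, against 0.557 and 4.33% for SMAD9. The untreated library differs from the 300 nM library in BMP4, IWP2 and LDN at once and in its mitochondrial share, and the part of each was not tested. The SMAD3 slope was not called without the 0 nM library (0.48, adjusted p = 0.0824) or by limma on log2(FPKM + 0.1) (0.11, adjusted p = 0.775).

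SMAD4 and SMAD5 were not called. SMAD4 was at 99.2, 102, 108, 108 and 103 CPM from 0 to 300 nM and at 104 CPM in untreated cells (log2 change 0.07, SE 0.055, edgeR adjusted p = 0.377). SMAD5 was at 61.9, 56.4, 59.6, 57.1 and 63.4 CPM and at 70.3 CPM in untreated cells (log2 change 0.04, SE 0.071, edgeR adjusted p = 0.722). Of the 6 members, 1 rose and 3 fell with LDN, where 10.4% of the 14907 genes tested rose and 10.9% fell.

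**Figure D3:**
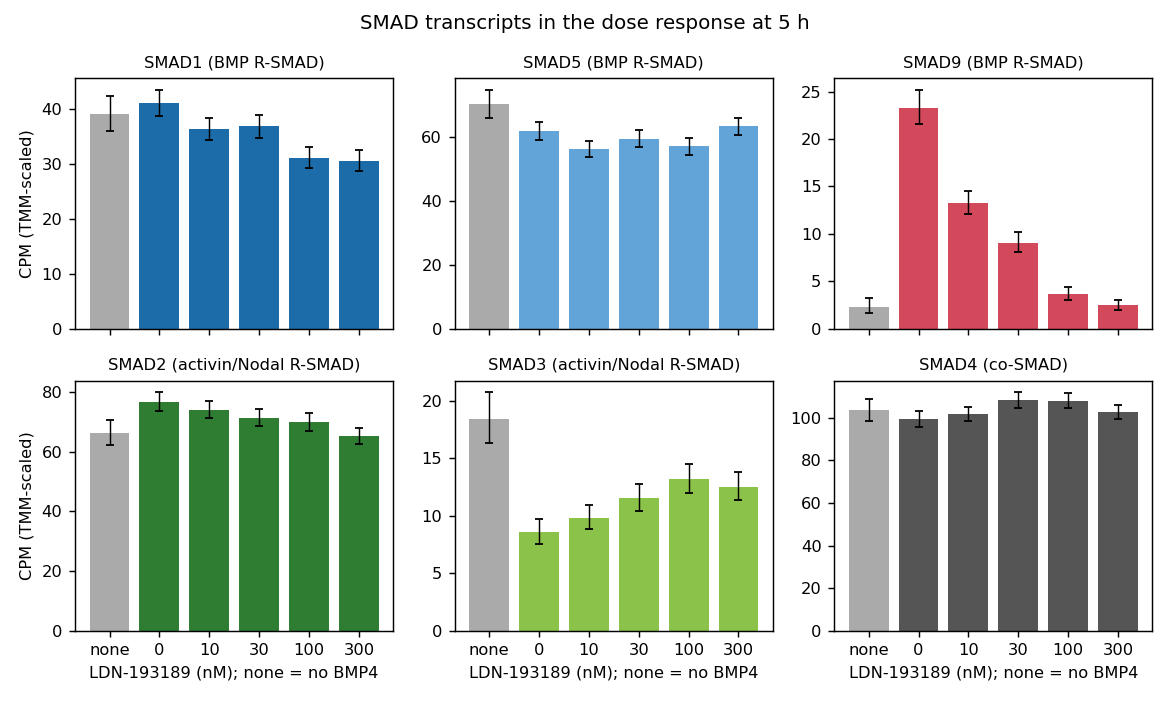
CPM on TMM-scaled totals of each SMAD (y axis, from 0) in untreated cells (grey, none) and after 5 h of BMP4 and IWP2 with 0 to 300 nM LDN (coloured). Bars are single libraries with 95% Poisson intervals. SMAD9 stepped down from 23.3 to 2.46 CPM, SMAD3 stood at 8.60 to 13.2 CPM against 18.4 CPM in untreated cells, and SMAD4 at 99.2 to 108 CPM.

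**Figure D4:**
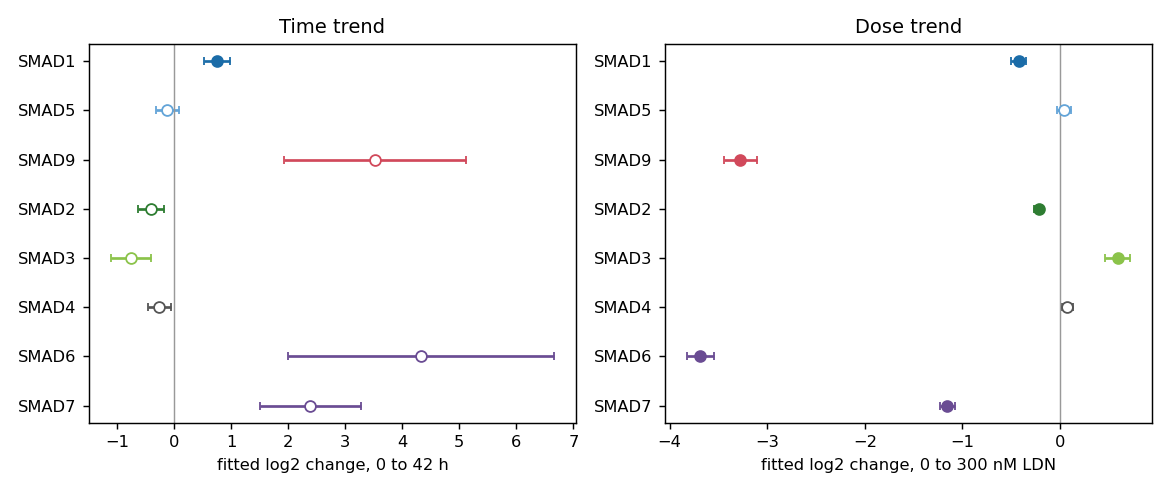
Fitted log2 change from 0 to 42 h (left) and from 0 to 300 nM LDN (right) for the 6 SMADs and the inhibitory SMAD6 and SMAD7. Points are edgeR estimates with bars of 1 SE, filled where the adjusted p was under 0.05. In time only SMAD1 is filled, and SMAD9 and SMAD6 have wide bars. On the right SMAD9 at -3.28 lies beside SMAD6 at -3.68.

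The sensitivity of SMAD9 to LDN was set beside that of other BMP-induced genes by the share of the increase over untreated cells that was left. With 10 nM LDN 52.2% was left for SMAD9, 60.2% for SMAD6, 84.4% for SMAD7 and 95.1% for ID1. With 100 nM these shares were 6.34% for SMAD9, 14.7% for SMAD6, 37.3% for SMAD7 and 56.0% for ID1, and with 300 nM they were 0.557%, 4.75%, 21.9% and 31.5% in the same order. In CPM the order of the 4 genes was the same at each dose, with SMAD9 lowest. At 30 nM, however, SMAD9 and SMAD6 were close, at 32.1 and 33.2%, and in FPKM their order turned there, at 36.6 and 31.5%. The 95% half-widths from counting error, from 10 to 300 nM, were 7.5, 6.1, 4.7 and 4.5 percentage points for SMAD9. For SMAD6 they were 2.7, 1.9, 1.3 and 0.9. The intervals of both genes overlapped except at 100 nM, and at 300 nM the SMAD9 half-width exceeded its share. In FPKM 12.3% was left for SMAD9 with 100 nM and 4.33% with 300 nM, beside 13.2 and 4.98% for SMAD6. Both inhibitory SMADs fell with LDN, SMAD6 from 164 to 11.1 CPM (log2 change -3.68, edgeR adjusted p = 9.65e-09) and SMAD7 from 75.2 to 34.4 CPM (log2 change -1.15, edgeR adjusted p = 3.96e-07). The differences between genes in these shares were not tested, as each dose had 1 library.

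**Figure D5:**
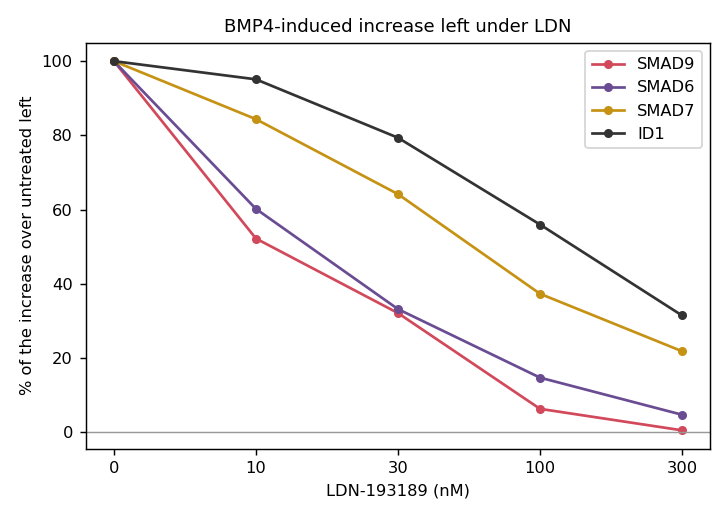
Share of the increase over untreated cells that was left at each LDN dose (y axis in percent of the increase without LDN, from CPM, x axis in nM, evenly spaced steps) for SMAD9, SMAD6, SMAD7 and ID1. Points are single libraries. In CPM SMAD9 lies lowest at each dose, at 52.2% with 10 nM and 0.557% with 300 nM, and ID1 highest, at 95.1 and 31.5%.

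The first hours of treatment could be compared between the 2 experiments, each within its own table. SMAD9 was higher by 3.55 on the log2 scale at 4 h over 0 h and by 3.30 at 5 h over untreated cells, and these differences exceeded 1, as they did for 6.38% of 15976 genes at 4 h and 8.05% of 14877 genes at 5 h. SMAD3 differed by -0.55 at 4 h and by -1.10 at 5 h. SMAD2 was higher by 0.35 at 4 h, near its 0 h SD of 0.34, and by 0.21 at 5 h. In CPM, SMAD1 (0.27 and 0.07), SMAD4 (0.08 and -0.06) and SMAD5 (-0.10 and -0.18) differed by no more than 0.3 in either experiment. On log2(FPKM + 0.1) these values were 0.34 and -0.09 for SMAD1, 0.21 and 0.14 for SMAD4, and 0.09 and 0.33 for SMAD5. SMAD2 differed by 0.31 and 0.43 on that scale, so the small differences depended on the measure. SMAD9 was thus the sole member past 1 in both. At 42 h over 0 h, SMAD9 was again the only one past 1 (4.68), where 31.1% of genes were. SMAD3 differed by -0.80 there, and by -1.04 on library totals and -1.39 in FPKM, which are past 1. From 0 to 300 nM LDN, SMAD9 was again the only member past 1 (-3.24), where 3.83% of genes were. The kits, library preparations, times and control conditions differ between the experiments, so the values are given side by side.

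Counts and FPKM did not move in parallel for every member. RSEM, the program that estimated both, sums transcripts to genes, so that counts per FPKM, taken relative to the median gene of a library, follow the mean effective length of the transcripts to which reads were assigned. For SMAD3 this relative length was 1.05 and 0.954 times its 0 h mean in the 0 h libraries and 1.14 to 1.3 times later, with 42 h highest. With BMP4 for 5 h it was 0.991 times that of untreated cells without LDN and 1.01, 1.06, 1.23 and 1.35 times with 10, 30, 100 and 300 nM. The SMAD3 counts thus rose with LDN while its FPKM were, from 0 to 300 nM, 2.47, 2.75, 3.07, 3.02 and 2.60. The range of this measure over libraries was larger than that of SMAD3 in 13.2% of 11771 genes of the time series and in 11.6% of 10728 genes of the dose response. For SMAD9 the relative length was 0.912 at 4 h and 0.721 to 0.847 later, against 0.987 and 1.01 at 0 h. In the dose response it was 0.952 times that of untreated cells without LDN. With 10, 30, 100 and 300 nM it was 1.0, 0.865, 0.734 and 0.762 times. The SMAD9 baselines rest on 99 and 116 counts at 0 h and 35 counts in untreated cells. For SMAD5 the relative length differed more between the 0 h libraries, at 1.17 and 0.857, than across the later ones, at 0.774 to 0.922. It was 0.742 in the 0 nM library against 0.950 to 1.09 in the others with BMP4. For SMAD2 it was 1.09 and 0.920 in the 0 h libraries, 0.908 to 1.08 from 4 to 28 h and 0.730 at 42 h, a range that 6.56% of genes exceeded. SMAD1 varied least in the time series, from 0.983 to 1.11. Which transcripts of SMAD3 were used was not measured here.

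The fusion allowed a second look at SMAD4 through the eGFP feature of the tables. The eGFP counts were 0.154 to 0.201 times those of SMAD4 in the time series, at 0.159 and 0.176 times at 0 h, and the later values lay on both sides of that pair. In CPM, eGFP was at 29.6 and 26.4 at 0 h and at 27.3, 25.5, 27.3, 23.0 and 29.8 at 4, 12, 20, 28 and 42 h. The 28 h library was lowest for both eGFP and SMAD4. In the dose response eGFP was at 19.1 CPM in untreated cells (95% Poisson interval 17.0 to 21.5), 12.7 CPM without LDN (11.4 to 14) and 14.8, 17.8, 16.0 and 15.1 CPM with 10, 30, 100 and 300 nM. The untreated and the 0 nM library thus differed by more than counting error for eGFP, whereas SMAD4 was at 104 and 99.2 CPM in them, and the ratio of counts was 0.185 and 0.128. The ratio in the 0 nM library was the lowest of all libraries, and its eGFP interval also lay below that of the 30 nM library (16.4 to 19.3 CPM). The cause of these differences was not tested, nor was the part of the untreated library's depth and mitochondrial share.

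Upstream of the SMADs, ACVR1, BMPR1A and BMPR2, but not all BMP receptor genes, rose over time and fell with LDN. The activin type I receptor ACVR1B rose over time too (fitted log2 change 1.05, edgeR adjusted p = 0.00375), and the BMP receptor BMPR1B was not called (-0.66, adjusted p = 0.314). The type II receptors ACVR2A (-0.12 over time, -0.18 with LDN) and ACVR2B (-0.10 over time, 0.03 with LDN) were called in neither trend. ACVR1B, BMPR1B, ACVR2A and ACVR2B were named after their values were seen. For this and the other lists, the shares called can be read against 36.7% of all genes over time (19.2% up, 17.5% down) and 21.3% with LDN (10.4% up, 10.9% down). Of 12 receptor genes 9 were tested over time, and 4 rose and 0 fell (44.4% called), with a median log2 change of -0.08 against -0.0047 over all genes. ACVR1, a BMP type I receptor, rose from a lowest value of 14.2 to a highest of 54.8 CPM (fitted log2 change 2.01, SE 0.34, edgeR adjusted p = 0.00304), and BMPR2, the BMP type II receptor, by 1.79 (SE 0.36, adjusted p = 0.00666). With LDN, 8 were tested, 1 rose and 3 fell, with a median of -0.13 against -0.0027 over all genes. BMPR2 fell by 0.79 (SE 0.067, adjusted p = 3.90e-06) and the type I receptor BMPR1A fell by 0.62 (SE 0.050, adjusted p = 2.60e-06), while TGFBR2, the TGF-β type II receptor, rose by 0.62 (SE 0.15, adjusted p = 0.0113).

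Among 16 transcriptional co-factors of SMADs, 1 rose and 2 fell over time (18.8% called, median log2 change -0.19), and 2 rose and 3 fell with LDN (31.2% called, median -0.0076). KAT2B, a histone acetyltransferase, rose by 2.54 over time (edgeR adjusted p = 0.00249) and fell by 1.19 with LDN (adjusted p = 0.00275). SKIL, a co-repressor that binds SMAD complexes, fell by 1.14 over time (adjusted p = 0.0311), and the co-repressor CTBP2 fell by 0.81 (adjusted p = 0.00772). TGIF1, a homeobox co-repressor, rose by 0.51 with LDN (adjusted p = 2.42e-05), CTBP1 by 0.21 (adjusted p = 0.00528), and TGIF2 fell by 0.33 (adjusted p = 0.000329).

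Of 14 DNA-binding partners, 13 were tested over time, with 2 rises and 3 falls (38.5% called, median log2 change -0.07), and 10 with LDN, with 5 rises and 2 falls (70.0% called, median 0.18). FOXH1, the forkhead factor that brings SMAD2 complexes to DNA, fell by 1.99 over time (edgeR adjusted p = 0.00901), and ZNF521 fell by 2.67 (adjusted p = 0.00588). RUNX1 rose by 4.86 over time (adjusted p = 0.000340) and ATF3, a stress-response factor, by 1.02 (adjusted p = 0.0436). With LDN, ATF3 rose by 0.78 (adjusted p = 0.000151) and FOXO3 by 0.63 (adjusted p = 5.61e-05), whereas RUNX3 fell by 2.17 (adjusted p = 0.000816) and ZNF423, a zinc-finger partner of BMP R-SMADs, fell by 0.63 (adjusted p = 7.79e-06).

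Of 14 ubiquitin ligases and deubiquitinases, which set the turnover of SMAD proteins and receptors, 2 rose and 2 fell over time (28.6% called, median log2 change 0.09) and 2 rose and 1 fell with LDN (21.4% called, median 0.0058). SMURF1, a ligase that targets BMP R-SMADs, rose by 0.93 over time (edgeR adjusted p = 0.00366) and USP4 by 0.62 (adjusted p = 0.0236). USP9X, a deubiquitinase of SMAD4, fell by 1.77 over time (adjusted p = 0.00148) and rose by 0.31 with LDN (adjusted p = 0.000125), and NEDD4L, a ligase of activated SMAD2 and SMAD3, fell by 0.91 over time (adjusted p = 0.0104). STUB1 rose by 0.29 (adjusted p = 0.0141) and WWP1 fell by 0.20 (adjusted p = 0.0237) with LDN.

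Of 12 phosphatases and linker kinases, 2 rose and 0 fell over time (16.7% called, median 0.16), and 4 rose and 1 fell with LDN (41.7% called, median 0.06). CTDSP1, a small C-terminal domain phosphatase, rose by 1.92 over time (edgeR adjusted p = 0.000395) and fell by 0.43 with LDN (adjusted p = 0.0104), and MAPK3, the kinase ERK1, rose by 1.0 over time (adjusted p = 0.00292). CTDSPL (0.37, adjusted p = 0.0158) and GSK3A (0.25, adjusted p = 0.00399) rose with LDN. Of 16 anchors and transport factors, 0 rose and 4 fell over time (25.0% called, median -0.17), and 1 rose and 1 fell with LDN (12.5% called, median 0.02). ZFYVE9 (SARA), which holds SMAD2 and SMAD3 at endosomal membranes, fell by 1.80 over time (adjusted p = 0.000430), and XPO4, an exporter of SMAD3, fell by 1.0 (adjusted p = 0.00945). With LDN the ZFYVE9 paralog ZFYVE16 fell by 0.46 (adjusted p = 0.00439) and TOB2 rose by 0.22 (adjusted p = 0.00615).

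Targets of both branches were called as well. Of 10 BMP targets, which include SMAD9, 3 rose and 0 fell over time (30.0% called, median log2 change 3.73), and all 9 tested fell with LDN (median -1.99). MSX1 rose by 10.3 (edgeR adjusted p = 9.09e-06) and MSX2 by 8.85 (adjusted p = 0.0181) over time, and MSX2 fell by 3.68 with LDN (adjusted p = 6.01e-05). Of 8 activin and Nodal targets, 6 were tested, and 0 rose and 4 fell over time (66.7% called, median -4.38) while 2 rose and 2 fell with LDN (also 66.7%, median 0.20). LEFTY1 fell by 8.54 (adjusted p = 0.00256) and LEFTY2 fell by 7.38 (adjusted p = 0.000288) over time, and LEFTY1 rose by 2.57 (adjusted p = 2.37e-05) and TDGF1, the Nodal co-receptor, by 0.29 (adjusted p = 0.000124) with LDN. GDF3 fell by 0.83 with LDN (adjusted p = 0.000392), as did SMAD7, which is in both target lists. LEFTY1 and LEFTY2 are near-identical in sequence, and their separate levels are uncertain. None of the lists was tested as a set. The annotated antisense and intronic genes of the SMAD loci were below 1 CPM in all libraries and were not tested.

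The genes whose profile was most like that of a member were found by Pearson's r of log2 CPM, as a description over 7 time-series libraries (10254 genes) and over 6 dose-response libraries (9916 genes). Over time, SMAD9 was most like TFAP2A-AS2 (r = 0.996) and TFAP2A (r = 0.995), an antisense RNA and the transcription factor gene beside it, whose log2 ranges were 6.41 and 11.5 against 5.21 for SMAD9. SMAD3 was most like ST7 (r = 0.983) and ERO1A (r = 0.977), SMAD1 like BLACAT1 (r = 0.982) and MXD1 (r = 0.977), and SMAD2 like LMLN (r = 0.996) and NPIPB13 (r = 0.982), a member of a multicopy family whose counts are uncertain. SMAD4 was most like KIF23 (r = 0.977) and UBR3 (r = 0.967), and SMAD5 like RC3H2 (r = 0.966).

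Over the 6 dose-response libraries SMAD9 was most like GALNT10 (r = 0.999) and PDE4A (r = 0.997), whose log2 ranges of 1.32 and 2.39 were below the 3.30 of SMAD9. SMAD3 was most like GJA1 (r = 0.999), a gap junction gene, and EXOSC5 (r = 0.996), SMAD1 like SERINC3 (r = 0.992) and SERTAD3 (r = 0.986), and SMAD2 like PHKA1 (r = 0.998) and LIMD2 (r = 0.998). SMAD4, with a log2 range of 0.124, was most like CALM3 (r = 0.979) and SUPT16H (r = 0.966), and SMAD5, with a range of 0.319, like EDRF1 (r = 0.992) and YEATS4 (r = 0.992). No gene was nearest to more than 1 member. With this many genes and so few libraries, values near 1 arise for nearly any profile, and all points of an r share the same libraries.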

How the data were processed

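Bulk RNA-seq was measured in 13 libraries, 7 of the time series and 6 of the dose response. Per the study's methods, the authors used Cutadapt for trimming, STAR 2.7.8a for alignment to GRCh38 and RSEM 1.3.3 for quantification, and the ENSEMBL release is not given in the sources used here. The authors deposited expected counts per gene, which are whole numbers and not scaled for depth, and FPKM, which they normalized for depth and effective transcript length. RSEM divides reads that map to several genes by estimate. The 5 reporter features were left out of tests and kept in library totals. Within each table, levels of a gene were compared between libraries as CPM on totals scaled by TMM, and levels between genes as FPKM.

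Slopes were fitted across all genes whose mean over the fitted libraries reached 1 CPM with edgeR 4.0.16 (quasi-likelihood test, Benjamini-Hochberg adjustment, threshold 0.05), in hours over 7 libraries and in the order of the 5 LDN doses as steps 0 to 4. The value is the fitted log2 change over the whole range, and the SE is the size of the change divided by the root of F. Only 0 h was replicated, and nothing states that its libraries came from separate cultures, so that scatter about the line was the error and may be technical in part. Comparisons of single libraries had no test. They took log2 of counts with 0.5 added over genes whose mean over all libraries of the table reached 1 CPM, and a change past 1 was counted. Alternatives used DESeq2 1.42.0, limma 3.58.1 on log2(FPKM + 0.1) and log2(FPKM + 1), other scalings, filters and shapes, and each library left out. The edgeR fits were tested on simulated counts with straight-line changes and the same dispersion for all genes, which does not cover genes with an early plateau.

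A total of 38 to 71.3 M counts in the time series and 15.6 to 34 M in the dose response put the floor of 3 counts at 0.0421 to 0.079 and 0.0883 to 0.192 CPM. Poisson intervals are exact, at 95%, and cover counting error only. For implied length, the median gene and the ranges over all genes used genes above 100 counts and 1 FPKM in every library. Members were measured without this floor. SMAD9 was below 1 FPKM at 0 h (0.64 and 0.39), in untreated cells (0.55) and with 300 nM LDN (0.79). Genes named were the 6 members, ID1, SMAD6, SMAD7 and eGFP, overlapping genes, up to 2 genes called in each direction with the largest slope per pathway list and trend, and the 2 genes above 10 CPM with the highest Pearson r per member and table, of which 1 is not reported here. The members and lists were chosen with earlier results of these data known. Tables and figures were made with Python 3.11.15 (scipy 1.17.1, pandas 2.3.3, matplotlib 3.10.9), and fits with R 4.3.3.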

Additional observations from a re-analysis of the deposited data

Results flagged for a closer look

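The eGFP feature lies outside the human genes and had 1140 to 1931 counts in the time-series libraries and 286 to 581 in the dose-response libraries, above the 3 counts that a count of 0 allows. Cre, mCherry and tdTomato had 0 counts in all 13 libraries, and eYFP, which resembles eGFP in sequence, had at most 5.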

How the results depend on the processing

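The dose slope of SMAD9 stayed called in all 14 alternatives (the smallest was -1.96, by limma on log2(FPKM + 1)), and no time or dose slope of SMAD1, SMAD2, SMAD3 or SMAD9 changed sign in any alternative. The time trend called 5865 genes, 3072 up and 2793 down. On library totals the split was 2121 up and 4069 down, with the median gene at -0.24, and by limma on log2(FPKM + 0.1) it was 2102 and 3750. It called 2338 genes over 0 to 20 h and 3259 to 6602 with a library left out (fewest without 42 h). The dose trend called 3180 genes, 1556 up and 1624 down, against 1107 (415 and 692) and 1106 by limma on log2(FPKM + 0.1) and log2(FPKM + 1), and 1978 (without 0 nM) to 2974 with a library left out, with 2102 without 300 nM. The SMAD1 time slope of 0.75 was not called on library totals (0.52), by limma on log2(FPKM + 0.1) (0.35) and log2(FPKM + 1) (0.34) or over 0 to 20 h (0.54), and ranged from 0.57 to 1.22 with a library left out. The SMAD3 time slope was called on library totals (-0.99), by limma (-1.28 and -1.03), on log2(hours + 4) (-0.90), with a quadratic term (-0.56) and over 0 to 20 h (-1.13). The SMAD9 time slope was called by DESeq2 (3.56), limma (4.36 and 3.27), on log2(hours + 4) (4.69), on the order of time points (4.18) and with a quadratic term (3.19). With a library left out, the SMAD2 time slope ranged from -0.62 to -0.26 and that of SMAD5 from -0.29 to 0.11. In the dose response the SMAD2 slope was not called by limma (-0.14 and -0.13) or with the untreated library added (-0.19), and ranged from -0.24 to -0.18 with a library left out. SMAD1 was not called with the untreated library added (-0.16). SMAD3 was not called by limma (0.11 and 0.083), and ranged from 0.48 to 0.84 with a library left out. By limma SMAD4 turned to -0.049 and -0.048 and SMAD5 to -0.22 and -0.21, and SMAD5 ranged from -0.10 to 0.18 with a library left out, below 0 without the 10 nM library (-0.00048) or the 300 nM library. The cause of these changes was not tested, and the fits that leave a library out also rest on fewer libraries. The FPKM values of the shares left under LDN were chosen as an alternative after seeing the data. No paired analysis was possible because only 0 h has more than 1 library. The straight line in hours limits what is called for genes with an early plateau, and single libraries after 0 h leave later levels without replicate error.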
